A study of Rattus norvegicus with 19 samples.

Results

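The potassium channel subunits measured here were all genes whose array symbol begins with Kcn, followed by a family letter code and a number. Kcnj10, a channel of glia, was left out by the same rule. This gave 74 of the 14217 genes with a named probe set, measured by 125 of 31042 probe sets. The rule used symbols alone and no measured value. Each gene was described by its brightest probe set, the one with the highest mean over all arrays, and 31 genes had further probe sets that served as a check. No filter on low values was applied, so all 74 genes entered every comparison.

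Potassium channels let potassium leave a neuron, which holds its resting potential, ends the action potential and sets how often it fires. Pore-forming subunits fall into voltage-gated (Kv), calcium- or sodium-activated, inwardly rectifying and tandem-pore groups, and auxiliary subunits change their gating or traffic. In sensory neurons of the dorsal root ganglion, axotomy is known to lower the transcripts of many of these genes. The rats here pose a different question, because the nerves cut were skin nerves of neighbouring segments. By design the measured ganglion was to be spared and its axons were to sprout into the denervated skin. Sprouting itself is not measured in these data, and injury genes are described below.

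The samples were single T11 dorsal root ganglia of adult female Sprague-Dawley rats, 1 array per rat and no pooling. The operated groups were 7 rats taken at day 7 and another 7 taken at day 14, following unilateral transection of the dorsal and lateral cutaneous nerves of the T9, T10, T12 and T13 segments. They were set against 5 naive rats without surgery, so effects of surgery and of time alone cannot be told apart from those of sprouting. One more naive array was removed by the submitters and is not analysed here. Values are log2 expression levels, and a difference of 1 is a doubling on that scale.

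Array values lay between 3.48 and 14.02, and arrays correlated at 0.987 to 0.997 over all probe sets. Sensory neuron markers were bright in all groups, and the 14 measured averaged 12.32 at day 7, 12.32 at day 14 and 12.29 in naive ganglia. Skeletal muscle transcripts stood high on 1 array of each group (day 7 replicate 7, day 14 replicate 2 and naive replicate 1). The mean of 6 central nervous system markers was below the median of all probe sets, at 5.94 at day 7, 6.0 at day 14 and 5.86 in naive ganglia. Of these markers, Slc17a7 (8.02 to 8.36) and Gfap lay above that median on every array. Gfap ran from 7.72 to 9.95 at day 7 and from 8.31 to 9.98 at day 14, against 7.55 to 8.72 in naive ganglia. In whole ganglia, fewer cells of a type and less RNA per cell cannot be told apart. Atf3, an injury-induced transcription factor, ran from 7.28 to 11.15 at day 7 and from 8.12 to 11.63 at day 14, against 7.94 to 8.44 in naive rats. Some operated rats thus stood far above every naive rat for this injury gene while others overlapped them. All 6 injury genes listed (Atf3, Sprr1a, Gal, Npy, Jun and Gap43) were higher than naive at day 14, with a median of 1.45. Of these, 5 had an unadjusted limma p under 0.05, against 9.17% of all genes, and 0 passed after adjustment. At day 7 all 6 were higher as well, with a median of 0.92, and 3 were under that threshold, against 3.58% of all genes.

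Promoters of 4 genes are shown as examples from those described at day 14 further on, none of which had a limma adjusted p under 0.05. They are Kcnj5 and Kcnj6, which encode G-protein-gated inward rectifiers, and Kcnma1 and Kcnmb1. The last 2 encode the pore and an auxiliary subunit of the large-conductance calcium-activated channel. Each window of 300 bases covers the RefSeq gene start, mostly upstream of it, on the gene's own strand in build GRCr8. Capitals mark the GC box (GGGCGG on either strand, a motif bound by Sp-family factors).
Kcnj5 (chr8:39011047-39011346, minus strand): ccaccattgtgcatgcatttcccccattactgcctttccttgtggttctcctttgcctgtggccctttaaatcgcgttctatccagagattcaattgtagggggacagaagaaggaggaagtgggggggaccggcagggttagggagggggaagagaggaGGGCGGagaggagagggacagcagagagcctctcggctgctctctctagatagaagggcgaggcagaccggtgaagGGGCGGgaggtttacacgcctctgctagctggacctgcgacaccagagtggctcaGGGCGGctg
Kcnj6 (chr11:47778299-47778598, minus strand): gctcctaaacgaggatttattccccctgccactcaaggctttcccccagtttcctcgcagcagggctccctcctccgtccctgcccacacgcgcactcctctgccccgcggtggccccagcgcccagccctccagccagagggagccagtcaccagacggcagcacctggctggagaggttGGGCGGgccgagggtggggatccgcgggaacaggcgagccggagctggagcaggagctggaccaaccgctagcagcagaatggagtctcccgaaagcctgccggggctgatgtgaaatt
Kcnma1 (chr15:351675-351974, plus strand): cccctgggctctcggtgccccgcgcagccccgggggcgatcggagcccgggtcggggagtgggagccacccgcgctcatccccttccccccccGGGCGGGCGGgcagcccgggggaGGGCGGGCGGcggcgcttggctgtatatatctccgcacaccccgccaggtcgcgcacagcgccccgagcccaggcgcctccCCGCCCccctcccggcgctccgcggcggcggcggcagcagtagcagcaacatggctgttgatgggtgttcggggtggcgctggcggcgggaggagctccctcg
Kcnmb1 (chr10:19061849-19062148, plus strand): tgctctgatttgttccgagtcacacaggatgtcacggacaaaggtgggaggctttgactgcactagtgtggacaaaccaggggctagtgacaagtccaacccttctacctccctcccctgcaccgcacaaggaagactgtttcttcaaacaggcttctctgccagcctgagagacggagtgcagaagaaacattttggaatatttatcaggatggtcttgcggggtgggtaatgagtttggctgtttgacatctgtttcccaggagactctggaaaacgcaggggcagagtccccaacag
The Kcnj5 window held 3 GC boxes, the Kcnj6 window 1 and the Kcnma1 window 5, of which 4 lie in 2 overlapping pairs and 1 is on the opposite strand. The Kcnmb1 window held none. Promoters of 51 of the 74 genes were in the table of 27457, and 29 of them (56.9%) held a GC box, against 34.9% of all promoters. Their median GC content was 61.7%, against 52.3% over all. The other motifs searched were the AP-1 site TGANTCA in 3 of 51 (5.88% against 7.33%), the TATA box TATAAA in 2 (3.92% against 14.3%) and the cyclic AMP response element TGACGTCA in 0 (against 1.91%). All motifs were read on both strands, and none shares a full match with another. A match describes letters and not a bound site.

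At day 7 the potassium channel genes differed little from naive ganglia. With limma, 0 of the 125 probe sets had an adjusted p under 0.05, as for all probe sets (0% called), and the smallest adjusted p of any was 0.336. Unadjusted p-values under 0.05 were found for 8 of 74 genes (10.8%), against 9.95% of all genes. Of these, 5 were higher, against 3.58% of all genes, and 3 were lower, against 6.37%. The median difference of the 74 genes was 0.01, with quartiles at -0.07 and 0.08, and that of all genes was -0.003. No gene separated the groups fully, where 0.225% of all genes did so upward and 0.309% downward. The share of genes at the unadjusted threshold was thus near that of all genes. Without naive replicate 4 the 8 genes became 5. Rat codes begin with AI, AJ or AK, and the labels do not say what the letters mean. With the letters as a block there were 7, and among AJ rats alone 3 of the 8 stayed under the threshold. The share of all genes was not computed for these alternative fits.

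At day 14 more members lay away from naive, in both directions. With limma, 0 of 125 probe sets had an adjusted p under 0.05, while 0.139% of all probe sets did, and the smallest adjusted p was 0.0689, shared by Kcnmb1 and the dimmer probe set of Kcnk10. Unadjusted p-values under 0.05 were found for 22 of 74 genes (29.7%), against 19.4% of all genes. They split into 10 higher (13.5%, against 9.17% of all genes) and 12 lower (16.2%, against 10.2%). The median difference was 0.02 with quartiles at -0.19 and 0.12, while all genes had 0.003 with quartiles at -0.09 and 0.09. The 74 genes therefore spread more widely around 0 than all genes, around a median near 0. All 7 day 14 rats lay above every naive rat for 2 genes, Kcnmb1 and Kcnq5 (0.914% of all genes did so). None lay wholly below, where 0.886% of all genes did. Rats whose codes begin AI occur only at day 14. With the letters as a block the 22 genes became 14 (2 higher, 12 lower), and among AJ rats alone, 2 at day 14 and 2 naive, they became 10 (1 higher, 9 lower). The share of all genes was not computed for these 2 fits, so their counts cannot be set against the 19.4%. Of the 22, 6 stayed under the unadjusted threshold with the block (Kcnmb1 higher, and Kcnj5, Kcnj6, Kcnd3, Kcnk2 and Kcnt1 lower). Among AJ rats alone 6 did so (Kcnmb1 higher, and Kcnj6, Kcnj13, Kcnd3, Kcnk2 and Kcna5 lower). Kcnma1, Kcnq3, Kcnq5, Kcnk13, Kcne3, Kcnv1 and Kcna1 stayed under it in neither. The same held for Kcnab2, Kcnc1, Kcne1, Kcne2, Kcng3, Kcnj11 and Kcns3.

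**Figure D1:**
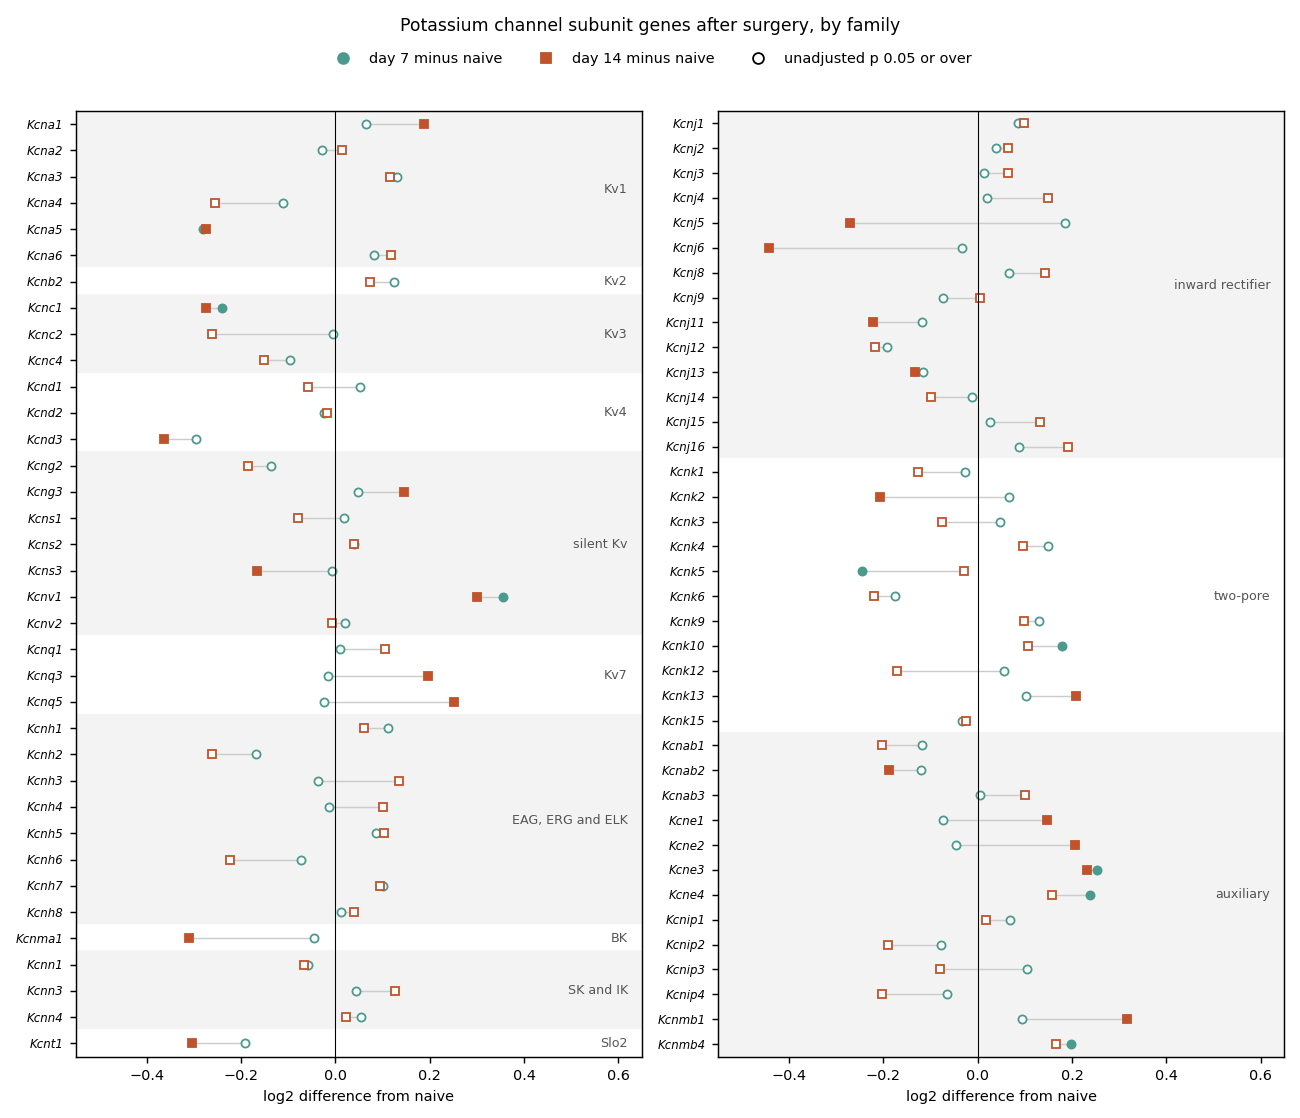
Log2 difference from naive ganglia (x axis) of each of the 74 genes (y axis), grouped by family, with circles for day 7 and squares for day 14. Filled symbols mark an unadjusted limma p under 0.05, 8 genes at day 7 and 22 at day 14, and no gene passed after adjustment.

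Between the operated groups, day 14 against day 7, 0 of 125 probe sets had a limma adjusted p under 0.05 (0% of all probe sets), with a smallest adjusted p of 0.155 for Kcnj5. Unadjusted p-values under 0.05 were found for 15 of 74 genes (20.3%), against 10.5% of all genes. These were 7 higher at day 14, against 6.11% of all genes, and 8 lower, against 4.43%. In all, 44 of the 74 genes were lower at day 14 than at day 7 and 30 higher, with a median of -0.03, against 0.004 over all genes. With the letters as a block 5 of the 15 stayed under the unadjusted threshold, Kcnj5, Kcnj6, Kcnk2, Kcnd1 and Kcne1. No share of all genes was computed for that fit. Every day 14 rat lay below every day 7 rat for Kcnj5 and Kcnip3, where 0.134% of all genes did so, and no member lay wholly above, where 0.0703% did. All 6 fibroblast markers were also higher at day 14 than at day 7, with list means from 11.66 to 12.17 at day 14 and from 11.43 to 11.87 at day 7. The same held for all 6 markers of myelinating Schwann cells, with list means from 10.79 to 11.29 at day 14 and from 10.32 to 11.18 at day 7. Their part in the potassium channel values was not tested. Comparisons against naive share the same 5 naive rats, and this one shares the operated rats with both.

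Kcnj5 and Kcnj6 encode subunits of G-protein-gated inward rectifiers, through which opioid and other inhibitory receptors quiet a neuron. Kcnj5 ran from 8.05 over a median of 8.34 to 8.59 at day 7 and from 7.70 over 7.82 to 7.98 at day 14, and read 7.91, 8.26, 8.03, 8.03 and 8.24 in the naive rats. The highest day 14 rat lay below the lowest day 7 rat, and 6 of 7 day 14 rats lay below every naive rat. Day 14 was lower than day 7 by 0.46 ± 0.09 (SE, a ratio of 0.729, 95% interval -0.63 to -0.28, limma unadjusted p = 3.0e-05, adjusted p = 0.155). Against naive the difference was -0.27 ± 0.09 at day 14 (limma adjusted p = 0.143) and 0.18 ± 0.09 at day 7 (adjusted p = 0.601). Among AJ rats alone day 14 stood at -0.56 from day 7 and at -0.17 from naive. The day 7 difference from naive was 0.40 among AJ rats and -0.12 among AK rats. The other Kcnj5 probe set, at a mean level of 5.38, went the opposite way: 0.28 ± 0.10 against naive and 0.20 ± 0.09 against day 7 (limma unadjusted p = 0.0124 and 0.0474).

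Kcnj6 ran from 7.29 over 7.48 to 7.93 at day 7 and from 6.16 over 7.32 to 7.65 at day 14, against naive values of 7.71, 7.60, 7.58, 7.45 and 7.65. One day 14 rat, replicate 3, lay more than 0.5 below the next, and 6 of 7 day 14 rats lay below every naive rat. The difference was -0.44 ± 0.18 from naive (limma adjusted p = 0.191) and -0.41 ± 0.16 from day 7 (adjusted p = 0.380). Without day 14 replicate 3 the difference from day 7 was -0.25, and among AJ rats alone, who include that rat, it was -0.899. Another Kcnj6 probe set was higher at day 14 than at day 7 by 0.17 ± 0.07 (limma unadjusted p = 0.0326), so the probe sets of this gene disagree. The partner subunits Kcnj3 and Kcnj9 stood 0.06 and 0.01 from naive at day 14.

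Of the 14 inward rectifiers, 0 were higher and 4 lower than naive at day 14 at an unadjusted p under 0.05, where 9.17% of all genes were higher and 10.2% lower. Beside Kcnj5 and Kcnj6 these were Kcnj11, the pore of the ATP-sensitive channel, at -0.22 ± 0.09 (limma adjusted p = 0.188), and Kcnj13 at -0.13 ± 0.06 (adjusted p = 0.241). For Kcnj11 the day 14 rats ran from 7.63 over 7.83 to 8.02, against naive values of 8.08, 8.07, 8.25, 8.03 and 7.89. The other Kcnj11 probe sets stood at 0.07 and 0.10, on the other side of 0. The strong inward rectifier Kcnj2 stood at 0.06 and the vascular Kcnj8 at 0.14, neither at an unadjusted p under 0.05.

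The large-conductance calcium-activated channel, which repolarises spikes when calcium enters, gave opposite values for its pore and its β1 subunit. Kcnma1, the pore, ran from 7.78 over 8.002 to 8.24 at day 7 and from 7.34 over 7.86 to 7.97 at day 14, against 8.004, 8.29, 7.94, 8.05 and 8.13 in naive rats. Of the day 14 rats 6 lay below every naive rat, and the day 7 rats overlapped the naive ones. The difference from naive at day 14 was -0.31 ± 0.10 (limma adjusted p = 0.127), and from day 7 it was -0.26 ± 0.09 (adjusted p = 0.352). The other Kcnma1 probe sets stood at 0.14 ± 0.16 and 0.01 ± 0.13 from naive, so the lower value rests on the brightest one. With the animal code letters as a block the brightest stood at -0.25 (limma unadjusted p = 0.129).

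Kcnmb1 encodes the β1 subunit, best known from smooth muscle, where it raises the channel's calcium sensitivity. It ran from 5.40 over 5.51 to 5.61 at day 7 and from 5.54 over 5.70 to 5.99 at day 14, against 5.48, 5.32, 5.31, 5.40 and 5.50 in naive rats. Every day 14 rat lay above every naive rat, although the groups are less than 0.05 apart at their edges. The difference from naive was 0.32 ± 0.07 (a ratio of 1.25, 95% interval 0.17 to 0.46, limma unadjusted p = 1.9e-04, adjusted p = 0.0689), and from day 7 it was 0.22 ± 0.06 (adjusted p = 0.289). The gene has 1 probe set, which is dim, with a mean of 5.55 where the median of all probe sets is 6.72. It crossed the threshold with the skeletal muscle level as a covariate (0.34, adjusted p = 0.0400), without naive replicate 1 (adjusted p = 0.0433) and without day 14 replicate 1 (adjusted p = 0.0475). With the animal code letters as a block it stood at 0.30 (limma adjusted p = 0.727), and among AJ rats alone at 0.31 (adjusted p = 1). Of the 7 measured endothelial and pericyte markers, 3 were higher and 4 lower than naive at day 14, and the list mean ran from 7.69 to 8.01 at day 14 and from 7.74 to 8.08 in naive rats.

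Kcnmb4, the neuronal β4 subunit, ran from 9.36 over 9.40 to 9.70 at day 7, against 9.20, 9.31, 9.40, 9.15 and 9.16 in naive rats. It was higher by 0.20 ± 0.09 at day 7 (limma adjusted p = 0.541) and by 0.16 ± 0.09 at day 14 (adjusted p = 0.295). The day 7 difference was 0.11 among AJ rats and 0.32 among AK rats. Of the other calcium- and sodium-activated channels, Kcnt1, the sodium-activated pore, stood at -0.30 ± 0.11 at day 14 (adjusted p = 0.150). Its day 14 rats ran from 7.90 over 8.42 to 8.50, against 8.45, 8.76, 8.30, 8.94 and 8.70 in naive rats, and the groups overlap. The small- and intermediate-conductance genes Kcnn1, Kcnn3 and Kcnn4 stood at -0.07, 0.13 and 0.02.

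**Figure D2:**
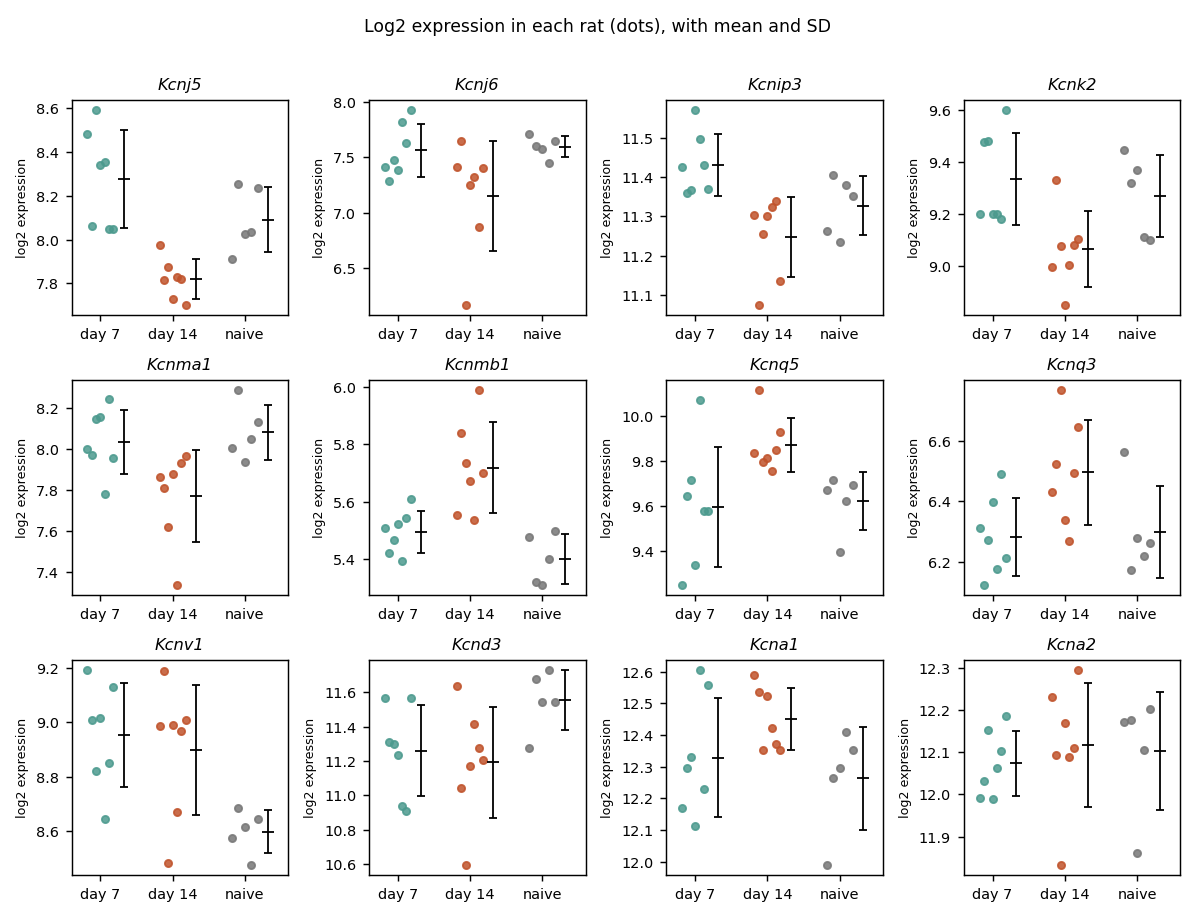
Log2 expression (y axis) of 12 genes in each rat (dots) at day 7, at day 14 and in naive ganglia, with the mean and SD as bars beside the dots. Kcnj5 and Kcnip3 do not overlap between day 14 and day 7, Kcnmb1 and Kcnq5 do not overlap between day 14 and naive, and day 14 replicate 3 is the low dot at 6.16 for Kcnj6.

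Kv7 channels carry the M-current, a slow potassium current that muscarinic receptors close and that holds neurons below firing threshold. All 3 measured members stood higher at day 14 than in naive ganglia, by 0.25 for Kcnq5, 0.20 for Kcnq3 and 0.11 for Kcnq1, and at day 7 they lay within 0.03 of naive. Kcnq5 ran from 9.25 over 9.58 to 10.07 at day 7 and from 9.75 over 9.84 to 10.12 at day 14, against 9.67, 9.72, 9.40, 9.62 and 9.69 in naive rats. Every day 14 rat lay above every naive rat, while day 7 rats lay on both sides. The difference from naive was 0.25 ± 0.11 (limma adjusted p = 0.202) and from day 7 it was 0.28 ± 0.10 (adjusted p = 0.352). Its other probe sets stood at 0.16 ± 0.08 and 0.08 ± 0.07 from naive. Kcnq3 ran from 6.12 over 6.27 to 6.49 at day 7 and from 6.27 over 6.49 to 6.77 at day 14, against 6.56, 6.17, 6.28, 6.22 and 6.26 in naive rats. Naive replicate 1 overlapped the day 14 rats and the other naive rats stood near their lower edge. The difference from naive was 0.20 ± 0.09 (limma adjusted p = 0.218), and the dimmer probe set gave 0.26 ± 0.07 (unadjusted p = 0.00243). With the animal code letters as a block Kcnq5 stood at 0.23 and Kcnq3 at 0.21 (limma unadjusted p = 0.190 and 0.148).

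Kv4 channels carry the A-type current that delays spikes, with Kcnip and Dpp proteins as partners. Kcnd3 ran from 10.91 over 11.30 to 11.57 at day 7 and from 10.59 over 11.21 to 11.64 at day 14, against 11.28, 11.68, 11.55, 11.73 and 11.55 in naive rats. The groups overlap, and 5 of 7 day 14 rats lay below every naive rat. The difference was -0.29 ± 0.15 at day 7 (limma adjusted p = 0.589) and -0.36 ± 0.15 at day 14 (adjusted p = 0.186). The day 7 difference of Kcnd3 was -0.09 among AJ rats and -0.54 among AK rats. At day 14 it was -0.68 with the animal code letters as a block and -0.53 among AJ rats alone. The other Kcnd3 probe sets stood at -0.16 and 0.01 at day 14. Kcnd1 and Kcnd2 stood at -0.06 and -0.02, and Kcnd1 was lower at day 14 than at day 7 by 0.11 ± 0.05 (limma unadjusted p = 0.0483).

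Kcnip3 encodes a calcium-binding Kv4 partner also known as the transcriptional repressor DREAM. It ran from 11.36 over 11.43 to 11.57 at day 7 and from 11.07 over 11.30 to 11.34 at day 14, against 11.26, 11.41, 11.23, 11.38 and 11.35 in naive rats. The 7 day 14 rats lay below the 7 day 7 rats, with naive rats between and across both. Day 14 was lower than day 7 by 0.18 ± 0.05 (limma adjusted p = 0.289). Its dimmer probe set went the other way, at 0.13 ± 0.09 against day 7 and 0.27 ± 0.10 against naive. The other Kv4 partners, Kcnip1, Kcnip2 and Kcnip4, stood at 0.02, -0.19 and -0.20 from naive at day 14, none at an unadjusted p under 0.05.

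Kv1 channels sit beside the node of Ranvier and limit repetitive firing. Kcna1 ran from 12.11 over 12.30 to 12.61 at day 7 and from 12.35 over 12.42 to 12.59 at day 14, against 11.99, 12.27, 12.30, 12.41 and 12.35 in naive rats. It was higher at day 14 by 0.19 ± 0.09 (limma adjusted p = 0.240), and the groups overlap. Kcna2, a Kv1 gene well known for its loss after nerve injury, stood at -0.03 ± 0.07 at day 7 and 0.01 ± 0.07 at day 14, with 95% intervals of -0.18 to 0.12 and -0.14 to 0.17. It ran from 11.99 over 12.06 to 12.19 at day 7 and from 11.83 over 12.11 to 12.30 at day 14, against 12.17, 12.18, 11.86, 12.11 and 12.20 in naive rats, so all 3 groups overlap. Kcna4, the A-type Kv1 gene of small sensory neurons, stood at -0.11 ± 0.14 and -0.26 ± 0.14 (limma adjusted p = 0.860 and 0.299). Its day 14 value was -0.59 with the animal code letters as a block (limma adjusted p = 0.630), -0.55 among AJ rats alone and -0.155 without day 14 replicate 3.

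Kcna5 was low in both operated groups. It ran from 6.98 over 7.18 to 7.36 at day 7 and from 6.83 over 7.22 to 7.47 at day 14, against 7.48, 7.63, 7.61, 7.46 and 7.11 in naive rats. All 7 day 7 rats lay below 4 of the 5 naive rats. The differences were -0.28 ± 0.10 at day 7 and -0.27 ± 0.10 at day 14 (limma adjusted p = 0.455 and 0.153). Of the β subunits that bind Kv1, Kcnab2 ran from 10.75 over 10.94 to 11.03 at day 14, against 11.09, 11.06, 11.13, 11.30 and 11.02 in naive rats. It stood at -0.19 ± 0.06 (limma adjusted p = 0.132), with its 3 dimmer probe sets between -0.19 and 0.17.

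Kv3 channels allow fast spiking. By their brightest probe sets all 3 measured members were lower at day 14, Kcnc1 by 0.27, Kcnc2 by 0.26 and Kcnc4 by 0.15. Kcnc1 ran from 8.22 over 8.39 to 8.67 at day 7 and from 7.94 over 8.44 to 8.66 at day 14, against 8.57, 8.89, 8.38, 8.77 and 8.64 in naive rats. It was the only one at an unadjusted p under 0.05, with limma adjusted p = 0.543 at day 7 and 0.175 at day 14, and the groups overlap. The day 7 difference of Kcnc1 was -0.065 among AJ rats and -0.36 among AK rats. With the animal code letters as a block it was -0.20 (limma unadjusted p = 0.0958). Kcnc2 was lower at day 14 than at day 7 by 0.26 ± 0.12 (limma unadjusted p = 0.0431), on 1 of 6 probe sets. Its next brightest probe set ran from 6.94 to 7.59 at day 14, against 7.01 to 7.69 in naive rats. A dimmer one leaned higher, from 5.58 to 5.79 at day 14 against 5.36 to 5.60 in naive rats. The dimmer Kcnc4 probe set also leaned higher at day 14. It ran from 6.68 to 6.91, against 6.82, 6.65, 6.54, 6.63 and 6.33 in naive rats.

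The silent Kv subunits form no channel alone and modify Kv2 channels. Kcnv1 had the largest difference among the 74 genes at day 7. It ran from 8.65 over 9.01 to 9.19 at day 7 and from 8.48 over 8.99 to 9.19 at day 14, against 8.57, 8.68, 8.61, 8.47 and 8.64 in naive rats. Of the day 7 rats 6 lay above every naive rat, and of the day 14 rats 5. The differences were 0.35 ± 0.11 at day 7 (limma unadjusted p = 0.00317, adjusted p = 0.421) and 0.30 ± 0.11 at day 14 (adjusted p = 0.150). At day 7 the value was 0.37 among AJ rats and 0.33 among AK rats, while at day 14 it was 0.14 among AJ rats alone and 0.13 with the letters as a block.

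Kcns3 ran from 11.39 over 11.51 to 11.73 at day 14, against 11.66, 11.80, 11.64, 11.66 and 11.74 in naive rats. It was lower by 0.17 ± 0.06 than naive and by 0.16 ± 0.06 than day 7 (limma adjusted p = 0.172 and 0.357). Kcns1, whose variants have been linked to pain sensitivity in people, stood at 0.02 ± 0.07 at day 7 and -0.08 ± 0.07 at day 14. Kcng3 stood at 0.14 ± 0.07 at day 14 (limma adjusted p = 0.234). The Kv2 pore gene Kcnb2 stood at 0.12 at day 7 and 0.07 at day 14.

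The tandem-pore channels carry background current. Kcnk2, the stretch- and heat-sensitive TREK-1, ran from 9.18 over 9.20 to 9.60 at day 7 and from 8.85 over 9.08 to 9.33 at day 14, against 9.45, 9.32, 9.37, 9.11 and 9.10 in naive rats. Of the 7 day 14 rats 6 lay below every day 7 rat. It was lower at day 14 by 0.21 ± 0.09 than naive and by 0.27 ± 0.08 than day 7 (limma adjusted p = 0.221 and 0.312). Its other probe set stood at 0.07 and 0.02.

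Kcnk10, the related TREK-2, ran from 5.71 over 5.85 to 6.08 at day 7 and from 5.69 over 5.78 to 5.94 at day 14, against 5.72, 5.65, 5.78, 5.61 and 5.67 in naive rats. The differences from naive were 0.18 ± 0.06 and 0.11 ± 0.06 (limma adjusted p = 0.455 and 0.337). The dimmer probe set agreed in direction and was larger. It ran from 5.12 over 5.36 to 5.62 at day 7 and from 5.27 over 5.38 to 5.47 at day 14, against 5.03, 5.003, 5.14, 4.92 and 5.11 in naive rats. On that probe set 6 of 7 day 7 rats and all 7 day 14 rats lay above every naive rat, with differences of 0.32 ± 0.08 (limma adjusted p = 0.336) and 0.35 ± 0.08 (adjusted p = 0.0689).

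Kcnk5, the acid-sensitive TASK-2, stood at -0.25 ± 0.08 from naive at day 7 (limma adjusted p = 0.442) and at -0.03 ± 0.08 at day 14, and day 14 was higher than day 7 by 0.22 ± 0.07 (adjusted p = 0.346). It ran from 5.71 over 5.82 to 5.92 at day 7 and from 5.83 over 6.04 to 6.28 at day 14, against 6.05, 6.10, 6.30, 6.08 and 5.79 in naive rats. The day 7 difference of Kcnk5 was -0.39 among AJ rats and -0.091 among AK rats. Kcnk13, a background channel prominent in microglia, ran from 6.74 over 6.98 to 7.08 at day 14, against 6.90, 6.64, 6.78, 6.67 and 6.68 in naive rats. It was higher by 0.21 ± 0.07 (limma adjusted p = 0.143), and stood at 0.12 with the animal code letters as a block and 0.069 among AJ rats alone. All 10 macrophage markers were also higher at day 14, 2 of them at an unadjusted p under 0.05, with list means from 8.01 to 8.77 against 7.95 to 8.23 in naive rats. Their part in the Kcnk13 value was not tested. Kcnk18 is not analysed here.

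The Kcne genes encode small single-span partners of several Kv pores. Kcne3 ran from 6.90 over 7.18 to 7.41 at day 7 and from 7.03 over 7.15 to 7.47 at day 14, against 7.00, 7.04, 7.05, 6.65 and 6.92 in naive rats. In each operated group 6 of 7 rats lay above every naive rat. The differences were 0.25 ± 0.09 and 0.23 ± 0.09 (limma adjusted p = 0.455 and 0.176), and the dimmer probe set stood at 0.06 and 0.24. With the animal code letters as a block the values were 0.22 at day 7 and 0.10 at day 14, and among AJ rats alone 0.18 and 0.079. Kcne4 was higher at day 7 by 0.24 ± 0.09 (limma adjusted p = 0.485) and stood at 0.16 at day 14. Its day 7 rats ran from 9.86 over 9.99 to 10.20, against 9.73, 10.03, 9.50, 9.82 and 9.83 in naive rats. The day 7 difference of Kcne4 was 0.44 among AJ rats and 0.034 among AK rats.

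Kcne1 and Kcne2, which lie on chromosome 11 with 3 protein-coding genes between them in GRCr8, were higher at day 14 than at day 7. Kcne1 was higher by 0.22 ± 0.06 (limma unadjusted p = 0.00149, adjusted p = 0.288) and Kcne2 by 0.25 ± 0.08 (adjusted p = 0.312). Kcne1 ran from 4.47 over 4.67 to 4.80 at day 14 and from 4.28 over 4.44 to 4.52 at day 7. Kcne2 ran from 5.29 over 5.46 to 5.61 at day 14 and from 4.93 over 5.20 to 5.37 at day 7. Both brightest probe sets are dim, below the median level of all probe sets. Of the other 7 neighbouring pairs, 4 stood on the same side of naive at day 14, such as Kcnip1 and Kcnmb1 at 0.02 and 0.32, and 3 did not. Of those 3, Kcnj5 and Kcnj1, with no gene between them, stood at -0.27 and 0.10 from naive at day 14, Kcnj6 and Kcnj15 at -0.44 and 0.13, and Kcna5 and Kcna1 at -0.27 and 0.19.

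The 8 ether-a-go-go type genes held no member at an unadjusted p under 0.05 against naive. Of all genes, 9.95% were under it at day 7 and 19.4% at day 14. A family of 8 is too small at these shares to read this as an absence of change. Kcnh2, the ERG channel, stood at -0.26 at day 14 (limma unadjusted p = 0.0764), and Kcnh3 was higher at day 14 than at day 7 by 0.17 ± 0.06 (limma adjusted p = 0.352). The widest spread within groups belonged to Kcnj6 (SD 0.339), Kcnk6 (0.322), Kcnd3 (0.272), Kcnh2 (0.260) and Kcnk4 (0.253). For Kcnk6 and Kcnk4 the day 14 differences of -0.22 and 0.10 were smaller than that spread.

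The direction at day 14 went with the level of the probe set. Among the 42 genes at or above the median level of all probe sets, 27 were lower than naive (64.3%, against 58.4% of all genes at that level), with a median of -0.16 against -0.03. At an unadjusted p under 0.05 these held 5 higher and 11 lower of 42, where all genes at that level held 559 and 1238 of 9796. Among the 32 dimmer genes, 8 were lower (25%, against 29%), with a median of 0.10 against 0.07. Against day 7, 33 of the 42 brighter genes were lower at day 14 (78.6%, against 55.3%), with a median of -0.07 against -0.01. The dim genes' upward and the bright genes' downward lean thus occurs in all genes as well, and the median of the brighter potassium channel genes lay further below 0. The interquartile range of array values was 3.74 ± 0.08 at day 7 and 3.68 ± 0.07 at day 14, against 3.78 ± 0.05 in naive rats (SD). Its part in these values was not tested.

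**Figure D3:**
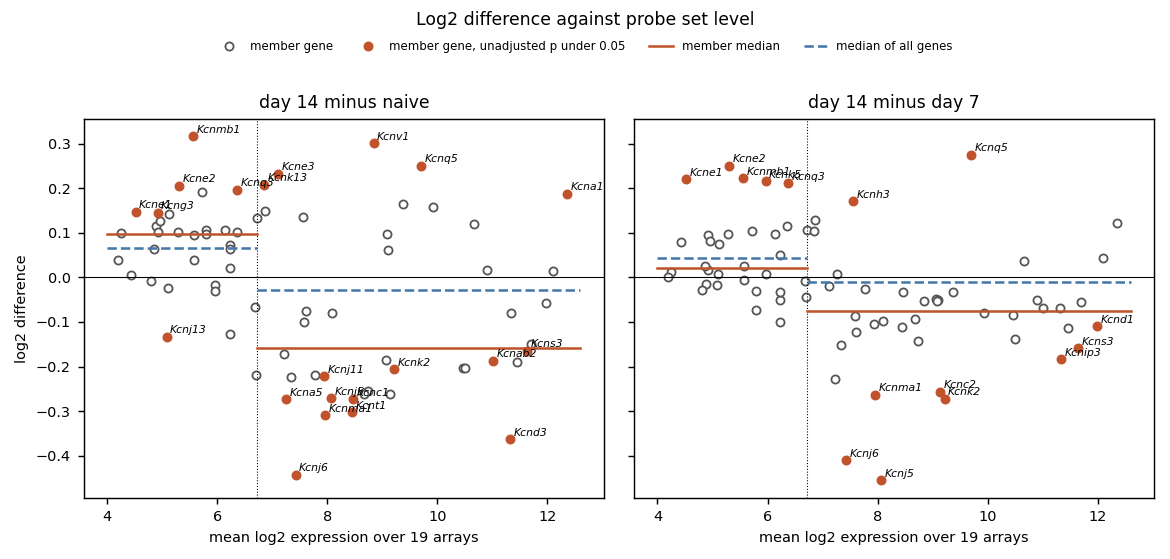
Log2 difference (y axis) against mean log2 expression (x axis) for the 74 genes at day 14 minus naive and day 14 minus day 7. Filled points have an unadjusted limma p under 0.05, the dotted line is the median level of 6.72, and the median of the 42 brighter genes lies at -0.16 and -0.07.

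Genes with several probe sets gave a mixed picture. At day 14, 12 of the 22 genes at an unadjusted p under 0.05 had more than 1 probe set, and all probe sets pointed the same way for 4 of them, Kcne2, Kcne3, Kcnq3 and Kcnq5. These 4 were all higher at day 14. For the other 8 (Kcnj5, Kcnj6, Kcnj11, Kcnma1, Kcnk2, Kcnd3, Kcnab2 and Kcnt1), at least 1 probe set lay on the other side of 0. These were all lower by their brightest probe set. The further probe sets are dimmer by the rule, and of all genes below the median level 3139 of 4421 were higher than naive at day 14. The part of level in this agreement was not tested. At day 7 both such genes, Kcne3 and Kcnk10, agreed across probe sets. Against day 7, 3 of 9 did so, Kcne2, Kcnq3 and Kcnq5. Over all 31 genes with several probe sets, full agreement in direction occurred for 13 at day 7, 12 at day 14 and 13 between the operated groups.

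**Figure D4:**
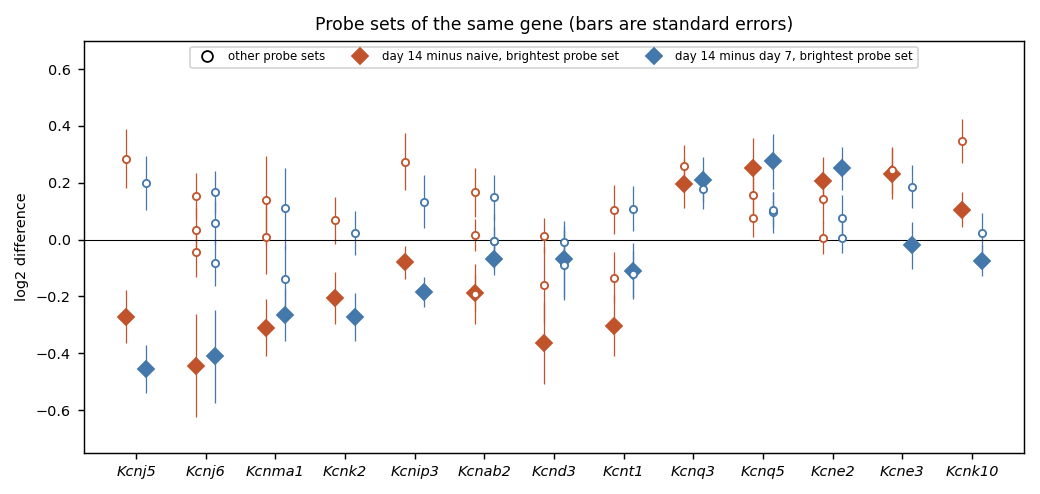
Log2 difference (y axis) of every probe set of 13 genes (x axis) at day 14 minus naive and day 14 minus day 7, with standard errors as bars. Diamonds are the brightest probe set and open circles the others. Those of Kcnj5 lie on opposite sides of 0, at -0.27 and 0.28 from naive, while those of Kcnq3 lie together, at 0.20 and 0.26.

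A pair of arrays stood out at the low end. Day 7 replicate 2 was the lowest of its group for 23 of 74 genes (31.1%, against 18.4% of all genes), and day 14 replicate 3 for 22 (29.7%, against 19.3%). These rats had the highest Atf3 values of their groups, 11.15 and 11.63. Day 14 replicate 3 was also the highest of its group for 13 genes (17.6%, against 19%). In contrast, day 14 replicate 5, with Atf3 at 11.04, was the lowest for 7 genes (9.46%, against 10.2%). Day 7 replicate 7, with Atf3 at 10.17, was the highest of its group for 24 genes (32.4%, against 26.1%). The part of injury in these values was not tested.

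**Figure D5:**
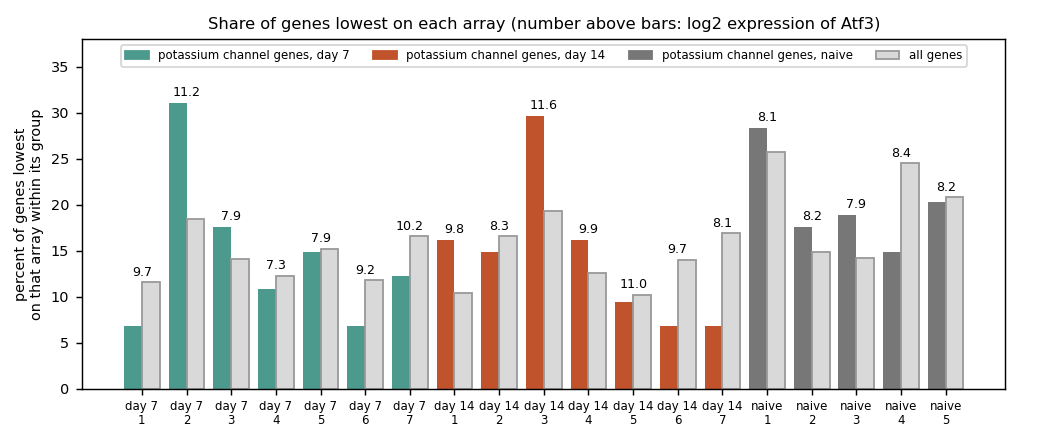
Percent of genes (y axis) that were lowest on each array within its group (x axis), for the 74 potassium channel genes in colour and for all genes in grey, with the Atf3 level above the bars. Day 7 replicate 2 and day 14 replicate 3 reached 31.1% and 29.7%, against 18.4% and 19.3% of all genes.

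A list of 26 genes whose products bind, anchor or regulate these channels, or carry the related pacemaker current, held 25 measured genes, and none had a limma adjusted p under 0.05. At day 14, 10 were higher than naive and 15 lower, of which 2 and 4 had an unadjusted p under 0.05 (against 9.17% and 10.2% of all genes). The lower ones were the Kv4 partners Dpp6 (-0.20) and Dpp10 (-0.29), the scaffold Dlg4 (-0.25) and Abcc8 (-0.30), which encodes a sulphonylurea receptor of the ATP-sensitive channel. The higher ones were the pacemaker channel Hcn4 (0.17) and Rest (0.16), a repressor of neuronal genes that is known to act on several potassium channel genes. Both are dim: at day 14 Hcn4 ran from 5.84 to 6.24 and Rest from 5.58 to 5.84, below the median level of 6.72. Of all genes below that level, 3139 of 4421 were higher than naive at day 14. Ehmt2, Dnmt3a and Mbd1, regulators on the same list, were not under the unadjusted threshold. At day 7, 4 were higher and 21 lower, with 0 and 2 at an unadjusted p under 0.05, while 51.3% of all genes were lower and 3.58% and 6.37% passed upward and downward. Between the operated groups 3 of the list were higher at day 14 and 2 lower at an unadjusted p under 0.05 (against 6.11% and 4.43% of all genes). Rest was higher at day 14 by 0.21 and Dpp10 lower by 0.19, and the list median was 0.01.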

How the data were processed

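The deposited table holds log2 expression levels per probe set on an Affymetrix rat array. RMA (background correction, quantile normalisation and probe summary) and limma were the authors' tools, per the submitters' processing notes, with no versions given. Per the labels' protocols, each ganglion's RNA was amplified in 2 rounds. Quantile normalisation hides a shift shared by most transcripts.

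After 57 control probe sets were left out, 31042 were fitted with limma 3.58.1 in R 4.3.3 (lmFit and eBayes, all 3 groups, 4.20 prior and 16 residual degrees of freedom). P-values were adjusted over all probe sets within a comparison by Benjamini-Hochberg, with a threshold of 0.05. The number of arrays limits precision: the median standard error of a member's difference was 0.086 against naive and 0.078 between operated groups. All 74 symbols matched current RefSeq names. Python 3.11.15 and matplotlib 3.10.9 drew the plots.

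Members, lists and rules were chosen with earlier results of these data known. Named genes were, in each comparison, up to 8 per direction with the smallest p under 0.05, a fixed set of 12 of which 9 were measured, genes with opposed probe sets, and the 5 widest within-group SDs. Other members are named to describe a family. Alternatives covered dim probe sets, normalisation, moderation, array weights, the samples fitted, the probe set per gene, blocks, covariates and leaving out arrays. Equal replicate numbers were not treated as pairs of rats. The fit was tested on simulated data.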

Additional observations from a re-analysis of the deposited data

Results flagged for a closer look

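In 9 of 99 groups of values, from 33 named genes in 3 groups each, 1 array lay apart from the rest by Dixon's criterion, and chance gives about 1 in 20, or 4.95. At day 7, replicate 7 was highest for Kcna4 (9.197, next 8.757) and Kcnt1 (8.703, next 8.466), and replicate 2 for Kcnmb4 (9.7, next 9.457). At day 14, replicate 5 was highest for Kcne3 (7.47, next 7.17). Among naive rats, replicate 1 was highest for Kcnq3 (6.562, next 6.278). Replicate 2 was lowest for Kcnd1 (11.84, next 11.99) and replicate 4 for Kcnc2 (8.921, next 9.283). Replicate 3 was lowest for Kcna2 (11.86, next 12.11) and Kcnq5 (9.397, next 9.624). For Kcnq5 the low naive array is 1 of the 5 that the day 14 rats lie above.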

How the results depend on the processing

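No alternative outside the leave-outs brought a gene result past the threshold except Kcnmb1 with the muscle covariate, and 730 of 759 gene values over 14 alternatives kept direction and side, while 28 changed sign. At day 14 minus naive, the 22 genes at an unadjusted p under 0.05 became 14 with the animal code letters as a block and 10 among AJ rats alone, chosen after seeing the data. Counts of genes under the alternatives, here and below, have no share of all genes beside them, because none was computed. The median of 0.02 became -0.16 on brighter probe sets alone, 0.052 with the mean of a gene's probe sets, 0.069 with the probe set of largest SD and -0.015 among AJ rats. Reversed were Kcnj5 (0.0067, mean of probe sets) and Kcnma1 (0.14, largest SD). Day 14 minus day 7 gave 9 genes and a median of -0.075 on brighter probe sets, and 0.0045 with the mean of probe sets. On the largest SD, Kcnip3 (0.13) and Kcnma1 (0.11) reversed. The other sign changes were in results at an unadjusted p of 0.05 or over. At day 7 minus naive these were Kcna1 (-0.040 without the 3 muscle-high arrays, -0.081 in AK rats), Kcna2 (0.061, AJ), Kcnj5 (-0.12, AK), Kcnk2 (-0.072, AJ), Kcnma1 (0.044 mean of probe sets, 0.028 largest SD, 0.038 AJ), Kcnq3 (0.0092 array weights, 0.034 mean of probe sets, 0.062 without the muscle-high arrays, 0.089 AK) and Kcns1 (-0.00067 replicate block, -0.062 without the muscle-high arrays, -0.016 AK). At day 14 minus naive they were Kcna2 (-0.066 animal code block, -0.017 replicate block, -0.015 AJ) and Kcns1 (0.0077 animal code block, 0.046 AJ). Between operated groups they were Kcna2 (-0.056 animal code block, -0.076 AJ) and Kcnd3 (0.027 array weights, 0.0070 without the muscle-high arrays). The causes were not tested.

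Leaving out 1 array gave 5 (without naive replicate 4) to 12 genes at day 7, 16 to 25 at day 14 and 13 to 16 between operated groups. It changed the sign of 11 of 1102 gene values, none at an unadjusted p under 0.05 in the full comparison. At day 7 Kcna1 ran from -0.0025 to 0.10, Kcnma1 from -0.081 to 0.0066, Kcnq3 from -0.050 to 0.051 and Kcns1 from -0.040 to 0.079, at day 14 Kcna2 from -0.046 to 0.062, and between operated groups Kcnd3 from -0.14 to 0.031. The replicate block gave 9, 23 and 15 genes. Same-numbered arrays of different groups correlated at -0.26 to 0.33 after group means were removed, with a mean of -0.031, against 0.0052 for arrays of unlike number. Of these pairs 3 of 17 passed 0.1, against 31 of 102, and 5 of 19 arrays correlated best with their own number. The numbers were thus not treated as pairs, and handling shared by number was not tested.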
